A study of Mus musculus with 18 samples.

Results

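The nuclear genes for respiratory complex I were followed in 18 mouse kidneys taken after ischemia and reperfusion. Members were the protein-coding nuclear genes whose symbols begin with Nduf, a letter from a, b, c, s or v, and a digit. The rule matched 40 of the 45706 genes in the count files, and 3 of these were processed pseudogenes and were left out (Ndufa11b, Ndufb4c and Ndufs6b). The remaining 37 genes lie on 15 chromosomes of the GRCm38 genome. They divide into 7 core subunits, 28 accessory subunits and 2 genes that carry the name without being subunits of the complex, Ndufa4 and Ndufa4l2. All 37 passed the filter on low counts in every comparison.

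The kidneys formed 4 groups: Cxcl12 KO (n = 5), Cxcl12 Control (n = 3), Myc KO (n = 5) and Myc Control (n = 5). All were male littermates on a C57BL/6 background (C57BL/6J in the methods), aged 10 to 12 weeks at surgery, and homozygous for the floxed allele of their cohort (Cxcl12 fl/fl or Myc fl/fl). KO mice carried Pax8rtTA and TetOCre, so that doxycycline switched on the recombinase only in Pax8-expressing tubular epithelium, while the controls lacked the Cre transgene. KO mice and controls alike drank doxycycline for 2 weeks and plain water for a further 1 week. Both renal pedicles were clamped for 22.5 min and the kidneys were collected after 12 h of reperfusion, so no uninjured kidney is among the 18. RNA came from whole kidney, in which other cells keep the floxed gene intact.

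Complex I is the NADH:ubiquinone oxidoreductase of the inner mitochondrial membrane. It takes electrons from NADH in its N module, passes them along iron-sulfur clusters to ubiquinone in the Q module, and pumps protons through a membrane arm. Core subunits are the conserved, catalytic ones, part encoded in the nucleus and part in mitochondrial DNA, and accessory subunits surround, stabilize and help assemble them. Proximal tubule cells depend on oxidative phosphorylation for solute transport, which makes them sensitive to ischemia.

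RefSeq start-site windows of GRCm38.p6, running from 250 bases before to 50 bases after each annotated start, were found for 32 of the 37 genes (34 windows). The letters AAGATGGC, searched for the factor YY1, occurred in 7 of the 34 windows (20.6%) against 2.75% of all 32851 windows, both strands searched. In each of the 7 genes they ran in the direction of the gene, began 23 to 39 bases after the start, and contained the ATG that GENCODE annotates as the start codon. The share over all windows was not limited to windows that hold a start codon, and binding of YY1 was not tested. The stretches are shown because they mark a shape that these genes share, with the searched letters in capitals.
Ndufs7, chr10:80249465-80249488, plus strand: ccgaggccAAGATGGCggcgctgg
Ndufs6, chr13:73328434-73328457, minus strand: tcaccggcAAGATGGCggcggtgc
Ndufs4, chr13:114388045-114388067, minus strand: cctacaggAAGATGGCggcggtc
Ndufa9, chr6:126849100-126849123, minus strand: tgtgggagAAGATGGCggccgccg
Ndufa3, chr7:3617387-3617410, plus strand: ccaagaacAAGATGGCcgggagta
Ndufc1, chr3:51408918-51408941, minus strand: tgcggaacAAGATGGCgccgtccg
Ndufb8, chr19:44555393-44555412, minus strand: agaaggtgAAGATGGCtgcc

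The E-box CACGTG, to which MYC binds with its partner MAX, was in 3 of the 34 windows (8.82%) against 7.15% of all windows. These windows belong to Ndufv1 and to Ndufa7, whose pair of annotated starts share 1 site. The NRF1 letters GCGCATGC, bound by nuclear respiratory factor 1, were in 8.82% of the member windows and 2.71% of all. The ETS letters CGGAAG were in 23.5% and 16.9%, and the ERR letters AAGGTCA in 8.82% and 4.72%. The E-box and NRF1 stretches are shown because MYC was the gene deleted in 1 cohort and NRF1 is a known regulator of respiratory genes. In Ndufa8 and Ndufa6 the capitals are the NRF1 letters as read on the opposite strand. In Ndufa11 they cover overlapping copies on both strands. A match is a string of letters and not a measured binding site.
Ndufv1, E-box, chr19:4012911-4012932, minus strand: gagggcgaCACGTGagcctggt
Ndufa7, E-box, chr17:33824492-33824513, plus strand: agaggagtCACGTGagcagggg
Ndufa8, NRF1, chr2:36049331-36049354, minus strand: ctggagacGCATGCGCagatggta
Ndufa6, NRF1, chr15:82354359-82354382, minus strand: gcggtagaGCATGCGCattgcaga
Ndufa11, NRF1, chr17:56717694-56717717, plus strand: tgcactgcGCGCATGCGCgcacgc

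Libraries held 12918220 to 29749500 reads counted on genes. The deleted genes fitted the labels: Cxcl12 stood at 26.3 to 40.9 CPM (reads on a gene scaled to a common library total) in Cxcl12 KO against 44.9 to 60.5 in their controls, and Myc at 26.6 to 37.02 CPM in Myc KO against 79.7 to 117.4. STAR left less than 5% of reads without a match to the genome in 6 kidneys (Cxcl12 KO 1 and 2, Myc KO 3 and 5, Myc Control 1 and 3), and these were also the 6 with the most reads. None is a Cxcl12 control, so in that cohort the library difference and the genotype are partly shared. All 10 proximal tubule markers examined were detected.

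Levels per length spread widely among the 35 subunits. Given as CPM per kilobase of the principal transcript and averaged over the 18 kidneys, Ndufb9, a distal membrane arm subunit, was highest at 283 ± 36.3 (SD, n = 18). The core subunit Ndufv1, which binds NADH, stood at 153 ± 20.8. The median was 87.9 CPM per kilobase over the core and 102 over the accessory subunits. At the lower end, Ndufb2 stood at 33.6 ± 4.46, Ndufs5 at 11.6 ± 6.88 and Ndufb4 at 7.37 ± 0.902. Ndufb4 and Ndufs5 share 36.98% and 31.1% of their 50-base words with other genes, all of them processed pseudogenes. Reads from Ndufb4 and Ndufs5 can therefore be split or dropped by the counting, and their low level per length is uncertain. Outside the complex, Ndufa4, now assigned to complex IV, exceeded every subunit at 408 ± 38.2, and its paralogue Ndufa4l2, known as a hypoxia-responsive gene, was lowest at 1.40 ± 0.457. Neighbours in the order mostly overlapped between kidneys, as the points for genes ranked 8 to 26 show, which all have means between 79.3 and 140.3.

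**Figure D1:**
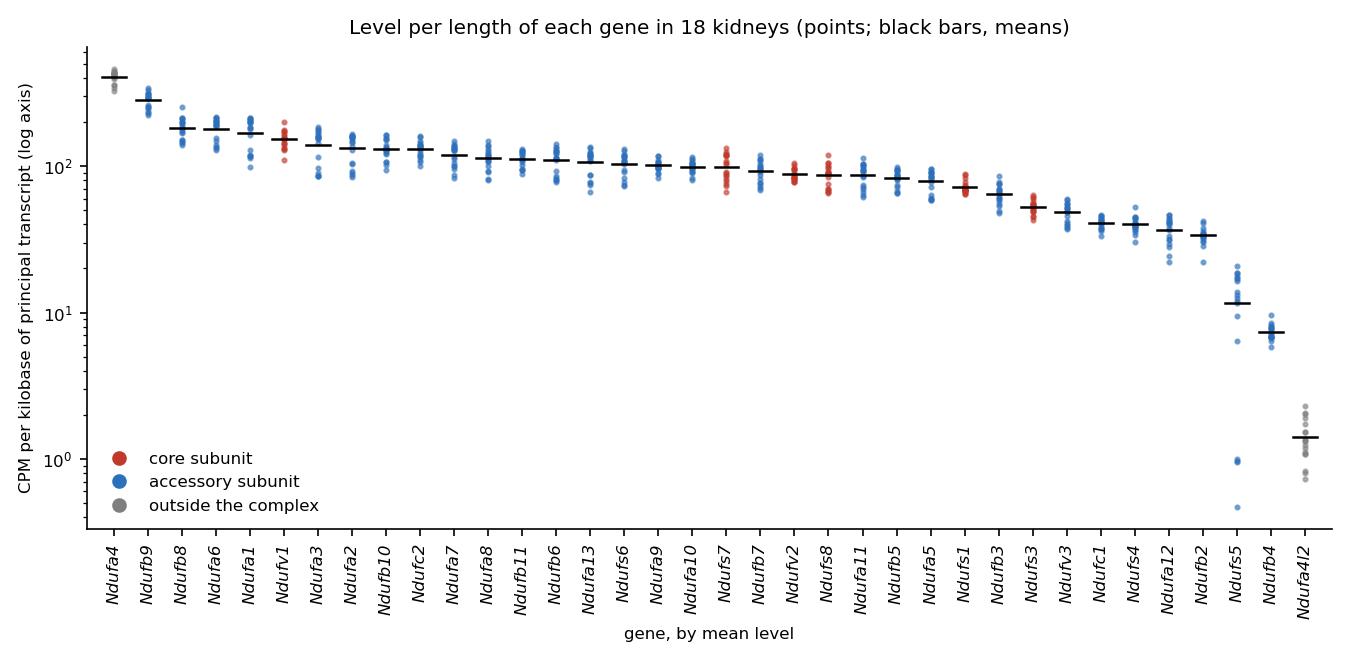
Level per length of 36 of the 37 genes, in CPM per kilobase of the principal transcript on a log axis, ordered by mean; each point is 1 of 18 kidneys and black bars are means. Most subunits lie within the range of 33.6 to 283, with Ndufs5 and Ndufb4 below it and 4 kidneys with Ndufs5 far below the others.

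Loss of Cxcl12 was compared with its own controls to ask whether the subunit mRNAs differ after the same injury. None of the 35 subunits passed an adjusted p of 0.05 in edgeR's quasi-likelihood test, where 0.0% of the 15154 genes tested did. At an unadjusted p under 0.05 there were 9 subunits, all lower in KO, beside 13.0% of all genes. The log2 fold change was below 0 in 33 of the 35 (49.8% of all genes), with a median of -0.18 beside 0.00 over all genes tested. In 5 subunits every KO kidney lay below every control (4.72% of all genes): Ndufb10, Ndufa8, Ndufa5, Ndufs3 and Ndufs7. A lower level per kidney could come from fewer tubule cells, from less RNA per cell or from the libraries, which cannot be told apart in these whole kidneys. Under 5% of reads were unmapped in 2 Cxcl12 KO kidneys and in no Cxcl12 control. The median difference in mean log2 CPM was -0.19 over all kidneys of the cohort. In those with 5% or more unmapped reads it was -0.10, with 27 of 35 lower. DESeq2 called 1 subunit, Ndufb10, described next, and 2.34% of all genes.

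Ndufb10, an accessory subunit of the distal membrane arm (chromosome 17, 24722060 to 24724478, minus strand), had the smallest p. Its values were 110.5, 113 and 119 CPM in controls 1 to 3 and 95.5, 88.5, 93.8, 97.1 and 90.1 CPM in KO kidneys 1 to 5. The groups did not overlap. KO kidneys 1 and 2, the 2 with few unmapped reads, stood at 95.5 and 88.5 CPM, and the other KO kidneys at 90.1 to 97.1. The log2 fold change was -0.30 ± 0.07 (SE), 0.812 times the control level, with an adjusted p of 0.132 by edgeR and 0.0073 by DESeq2. Over all 20 alternatives its adjusted p ran from 0.0073 to 0.373, and 1 passed. Over all 18 kidneys Ndufb10 averaged 80.6 CPM in the 6 with few unmapped reads and 104 in the other 12 (log2 difference -0.36). Myc Control 1 and 3, of those 6, had 78.3 and 78.5 CPM, and the other Myc controls 101.5 to 119. Myc KO 3 and 5, also of those 6, had 74.3 and 68.65 CPM, and the other Myc KO kidneys 93.1 to 99.6.

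Among the core subunits, all 7 had a lower mean in Cxcl12 KO and none passed the test. Ndufs7, which carries the last iron-sulfur cluster before ubiquinone (chromosome 10, 80249121 to 80256794, plus strand), measured 91.0, 90.6 and 101 CPM in controls. The KO kidneys gave 67.5, 62.3, 90.2, 82.6 and 80.1 CPM. KO kidneys 1 and 2 were the lowest and KO 3 came close to the lowest control, for a log2 fold change of -0.31 ± 0.12 (adjusted p = 0.318, edgeR). Ndufs3, a Q module subunit, held 64.1, 60.3 and 66.4 CPM in controls and 54.8, 50.6, 56.9, 51.6 and 57.8 CPM in KO, without overlap (log2 -0.23 ± 0.08, adjusted p = 0.272, edgeR). It shares 39.7% of its 50-base words with other genes, pseudogenes among them, and its fold change was -0.15 and -0.34 on the strand columns, so its counts are uncertain. Ndufs8, which binds iron-sulfur clusters in the same module, read 98.8, 89.4 and 103 CPM against 74.5, 65.7, 94.5, 88.3 and 88.9 CPM, and here KO 3 lay above a control. Ndufs1, the largest subunit of the NADH arm, showed 225, 194 and 228 CPM in controls and 213, 188, 166, 178 and 167 CPM in KO. Its pattern was unlike that of Ndufs7, since the lowest kidneys were KO 3 and KO 5. Ndufv1 spanned 257 to 333 CPM in controls and 239 to 292 in KO, and Ndufv2 153 to 166 and 134 to 171. These ranges overlap.

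The lowest fold changes among all members belonged to Ndufa4l2, Ndufa3 and Ndufs7. Ndufa4l2 stood at 1.94, 2.15 and 1.61 CPM in controls and 1.01, 1.78, 1.25, 0.777 and 0.744 CPM in KO, on 11 to 47 reads a kidney over all 18 (log2 -0.76 ± 0.32, adjusted p = 0.354, edgeR). Ndufa3, a small membrane arm subunit, had 91.7, 80.8 and 94.9 CPM in controls. Its KO values were 50.04, 59.4, 82.9, 86.3 and 83.0 CPM, with KO 1 and 2 far below the rest and the other 3 inside the control range (log2 -0.31 ± 0.17). Ndufb4 and Ndufb2, of the distal arm, were the only subunits with a higher mean in KO. Ndufb4 measured 6.64 to 7.05 CPM in controls and 6.54 to 7.96 in KO (log2 0.09 ± 0.13), and Ndufb2 14.6 to 15.5 and 15.2 to 17.3 (log2 0.05 ± 0.10). Ndufa4 did not separate the groups, with 247 to 273 CPM in controls and 246 to 267 in KO.

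Markers of cell types were summed in the same kidneys. The summed level of the 10 proximal tubule markers was 5732 to 6652 CPM in Cxcl12 KO and 6668 to 8118 in controls. The 4 injured tubule markers summed to 2567 to 3073 CPM in KO and 1602 to 2393 in controls, and the 7 leukocyte markers to 75.8 to 166 and 69.8 to 70.9 CPM. No marker of these lists was at 0, and none passed an adjusted p of 0.05 in edgeR. Members went both ways. Of the 10 proximal tubule markers 9 had a log2 fold change below 0 and Slc7a13 had 0.105. Every KO kidney lay below every control in 1 of them, Lrp2 (4.72% of all genes). Of the injured tubule markers Lcn2 had 0.84 and Vcam1 -0.14, and of the leukocyte markers S100a8 had 1.74 and Adgre1 -0.42. Every KO kidney lay above every control for Lcn2, S100a8 and S100a9, as for 752 of the 15154 genes tested. Of 8 loop, distal and collecting duct markers 6 were below 0, and for Pvalb every KO kidney lay below every control. All 3 endothelium and 3 podocyte markers were above 0. None of these passed either. The part of the markers in the subunit differences was not tested.

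Loss of Myc was compared with its own controls in the same way, MYC being a transcription factor known to act on genes for mitochondrial biogenesis. None of the 35 subunits passed an adjusted p of 0.05 in edgeR, while 1.65% of the 14936 genes tested did. Unadjusted p-values under 0.05 were found for 2 subunits, Ndufb2 and Ndufb3, beside 21.9% of all genes, and DESeq2 called none of them and 7.63% of all genes. The log2 fold change was below 0 in 34 of the 35 (50.1% of all genes), with a median of -0.13 beside 0.00 over all genes. Without Myc Control 4, Myc KO 3 or Myc KO 5 the median was -0.06, -0.08 and -0.08, and without Myc Control 1 it was -0.22. In 0 subunits did every KO kidney lie below every control (3.92% of all genes).

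Ndufs7 was again among the 3 lowest. It measured 56.8, 78.0, 59.7, 95.2 and 89.2 CPM in Myc controls 1 to 5 and 69.6, 65.3, 55.4, 65.4 and 50.1 CPM in KO kidneys 1 to 5. Controls 1 and 3 sat inside the KO range and the other 3 controls above it (log2 -0.31 ± 0.15, adjusted p = 0.248, edgeR). Ndufb2, an accessory subunit of the distal arm, had 14.0, 16.4, 15.6, 18.5 and 19.3 CPM in controls and 15.9, 13.0, 10.01, 13.8 and 14.7 CPM in KO (log2 -0.31 ± 0.13, adjusted p = 0.204, edgeR). The highest fold changes were those of Ndufa1 and Ndufa5. Ndufa1, a single-pass membrane protein of the proximal arm encoded on the X chromosome, read 41.4, 68.8, 49.0, 87.0 and 88.0 CPM in controls and 84.4, 82.0, 47.6, 74.6 and 49.0 CPM in KO. Both groups split into low and high kidneys, and the difference was 0.02 ± 0.23. Ndufa5, of the Q module, ran from 51.5 to 83.4 CPM in controls and from 51.5 to 79.1 in KO (log2 -0.03 ± 0.16).

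All 7 core subunits had lower means in Myc KO. Ndufs8 ran from 68.1 to 118 CPM in controls, with a median of 97.2, and from 64.0 to 88.2 CPM in KO (log2 -0.22 ± 0.16). Ndufv2, which holds an iron-sulfur cluster beside the NADH site, gave 132, 162, 147, 179 and 161 CPM in controls and 143, 142, 131, 139 and 140.0 CPM in KO. All 5 KO kidneys lay at or below 143 CPM, and 4 of the 5 controls above it (log2 -0.17 ± 0.08, adjusted p = 0.261, edgeR). Ndufs1 was nearly level among KO kidneys, at 174 to 181 CPM, beside 173 to 203 in controls. Ndufs3 covered 44.9 to 55.8 CPM in KO and 46.9 to 63.2 in controls, and Ndufv1 182 to 283 and 216 to 288. Of the members outside the complex, Ndufa4 covered 198 to 269 CPM in KO and 209 to 281 in controls, and Ndufa4l2 0.683 to 1.43 and 1.05 to 1.90. The model was also fitted with a yes or no term for kidneys with under 5% unmapped reads. With that term, 3 of the 35 subunits passed in the Myc cohort, and so did 6.39% of all genes. The 3 were Ndufa7, Ndufa8 and Ndufs7, with adjusted p of 0.0305, 0.0470 and 0.0441 in edgeR, and in the other 21 alternatives none of the 3 did (highest adjusted p 0.596, 0.636 and 0.523).

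**Figure D2:**
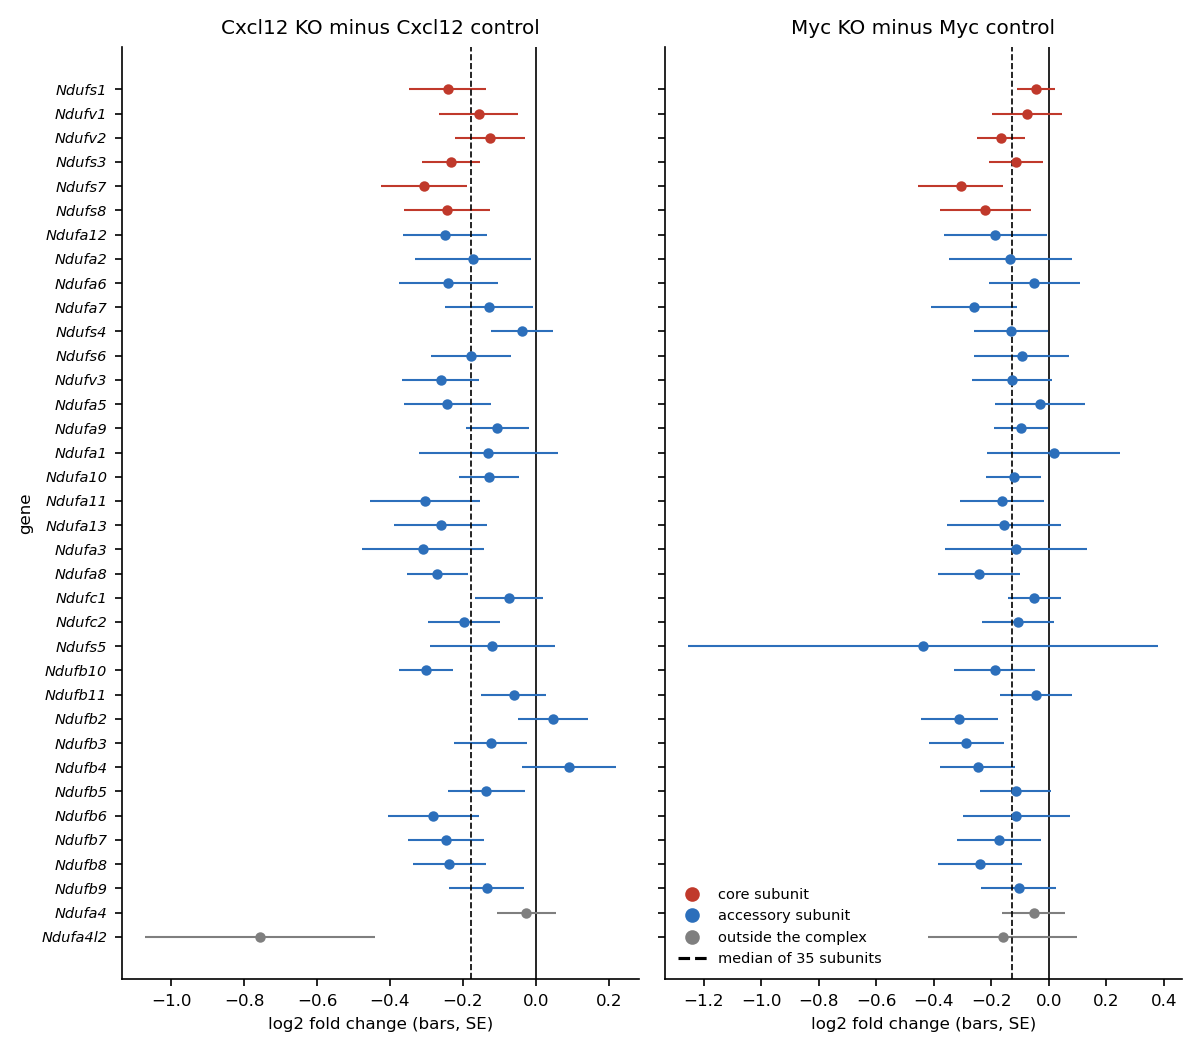
Log2 fold change of 36 members, KO minus control, in the Cxcl12 cohort (5 against 3 kidneys) and the Myc cohort (5 against 5); points are edgeR estimates, bars their standard errors, and dashed lines the medians over 35 subunits, -0.18 and -0.13. Nearly all points lie left of 0, most within 2 standard errors of it, and the widest bar belongs to Ndufs5 in the Myc cohort.

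The effects of the 2 deletions were compared by an interaction term over all 18 kidneys. None of the 35 subunits differed at an adjusted p of 0.05, and 0.0692% of the 15903 genes tested did. At an unadjusted p under 0.05 there was 1 subunit, beside 11.4% of all genes. It was Ndufb2 (Myc effect minus Cxcl12 effect -0.37 ± 0.17, adjusted p = 0.426, edgeR). DESeq2 also called no subunit, and 1.97% of all genes. The median difference was 0.03, with 25 subunits above 0 and 10 below. The Myc markers of proximal tubule summed to 4928 to 8029 CPM in KO and 5426 to 6859 in controls, so the ranges overlapped in that cohort, unlike in the Cxcl12 cohort. In Myc KO, 7 of these 10 markers had a log2 fold change above 0 and 3 below (median 0.145). Above 0 were also 6 of 8 loop, distal and collecting duct, 2 of 4 injured tubule and 5 of 7 leukocyte markers. So were all 3 endothelium and 3 podocyte markers (50.1% of all genes were below 0). No marker passed an adjusted p of 0.05 in edgeR in Myc or between cohorts (smallest 0.0516 and 0.0794). Their part in the subunit differences was not tested.

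The subunits also differed between libraries by their share of unmapped reads. The reads of all 35 subunits together made up 2692 to 3241 CPM in the 6 kidneys with under 5% unmapped reads and 3353 to 4083 CPM in the other 12, without overlap. In 16 subunits each of the 6 kidneys was below each of the 12, which held for 3.13% of the 15903 genes tested. The largest gap was that of Ndufa3, with means of 47.9 and 84.4 CPM (log2 difference -0.82). Ndufa1 was next, at 48.5 and 82.2 CPM. The smallest among core subunits was that of Ndufs1, at 185 and 188 CPM (log2 difference -0.02). Across the 35 subunits this log2 difference rose with the length of the principal transcript, from 419 to 2590 bases (Pearson r = 0.51 with log2 length, Spearman rho = 0.48, across genes, which share the same libraries). Over all protein-coding genes the same difference had a median of -0.27 for exonic lengths up to 1000 bases and 0.07 above 4000 bases. The subunits in those classes had medians of -0.41 (9 genes) and -0.25 (4 genes), and between 1000 and 2000 bases -0.49 (13 genes) beside -0.14 over all. Whether library preparation or the tissue gave this difference was not tested.

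Within the 12 kidneys with 5% or more unmapped reads, the median difference in mean log2 CPM over the subunits was -0.10 for Cxcl12 (3 KO against 3 controls, 27 of 35 lower) and -0.17 for Myc (3 against 3, 35 of 35 lower). There all KO kidneys lay below all controls for 7 subunits in the Cxcl12 cohort (9.17% of all genes) and for 20 in the Myc cohort (15.6% of all genes). Within the 6 kidneys under 5%, the Myc cohort alone had both genotypes (2 against 2), and the median was -0.08, with 30 of 35 lower and 17 non-overlapping (23.5% of all genes). The Cxcl12 cohort has no control under 5% and could be compared in the other set of libraries only.

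**Figure D3:**
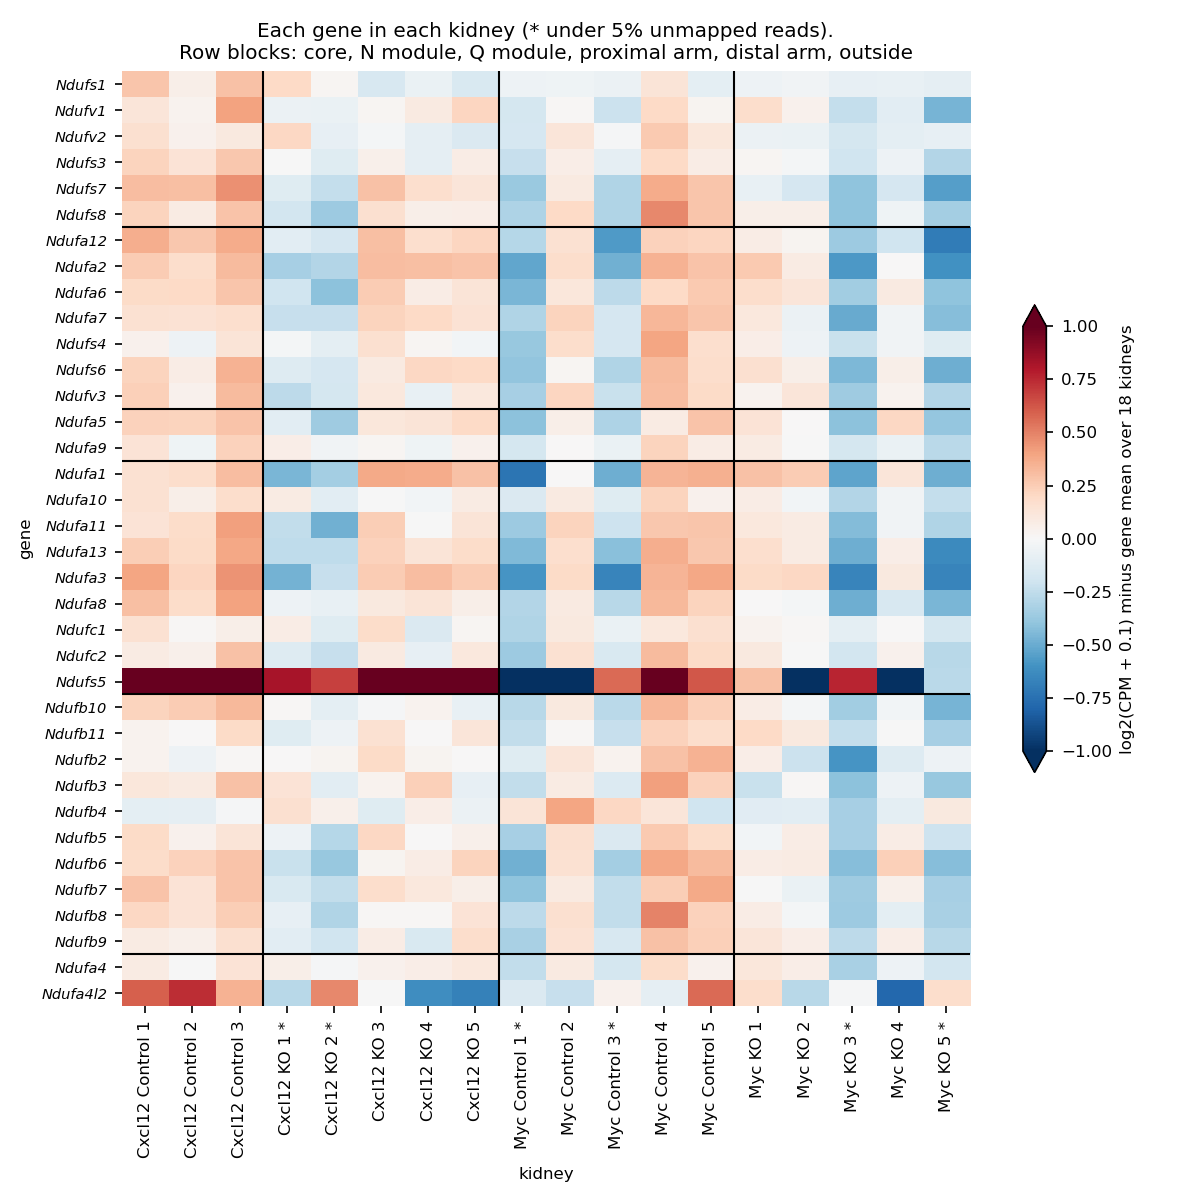
Values of 36 genes (rows, in blocks by place in the complex) in each kidney (columns, by group), as log2(CPM + 0.1) minus the gene's mean over 18 kidneys, with colours cut at -1 and 1. Columns marked with an asterisk are the 6 kidneys with under 5% unmapped reads, and they are blue over most rows in 3 of the 4 groups, while the Ndufs5 row follows a pattern of its own.

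Core and accessory subunits were set side by side. In the Cxcl12 cohort the median log2 fold change was -0.23 over the core and -0.17 over the accessory subunits, and in the Myc cohort -0.12 and -0.13. The Cxcl12 order of core and accessory changed when single kidneys were left out. The core median minus the accessory median, -0.06, was 0.012, 0.001 and 0.010 without KO 3, KO 4 or KO 5. These are the KO kidneys with 5% or more unmapped reads. Among Cxcl12 kidneys with 5% or more (3 KO against 3 controls), the median difference in mean log2 CPM was -0.16 over the core. It was -0.09 over the accessory subunits there. By place in the complex the Cxcl12 medians were -0.17 for the N module (10 genes), -0.24 for the Q module (6), -0.20 for the proximal (9) and -0.14 for the distal membrane arm (10), and the Myc medians were -0.13, -0.11, -0.12 and -0.18. As a score per kidney, the mean of centred log2 CPM without Ndufs5 was 0.19 ± 0.10 over the core in Cxcl12 controls (SD, n = 3) and -0.01 ± 0.08 in Cxcl12 KO (n = 5). All 5 KO scores, at -0.15 to 0.06, lay below the 3 control scores of 0.09 to 0.29. Over the 27 accessory subunits the same groups scored 0.18 ± 0.07 and 0.00 ± 0.15, and they overlapped. In the Myc cohort both scores overlapped, at 0.02 ± 0.19 and -0.12 ± 0.14 for the core and 0.01 ± 0.28 and -0.12 ± 0.23 for the accessory subunits, controls before KO. The core score minus the accessory score was 0.05 to 0.13 in the 6 kidneys with few unmapped reads and -0.12 to 0.04 in the other 12. Among those 12 it was -0.082 to -0.069 in Cxcl12 KO and -0.020 to 0.035 in Cxcl12 controls. In the Myc cohort it was -0.078 to -0.054 in KO and -0.115 to -0.028 in controls among them.

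**Figure D4:**
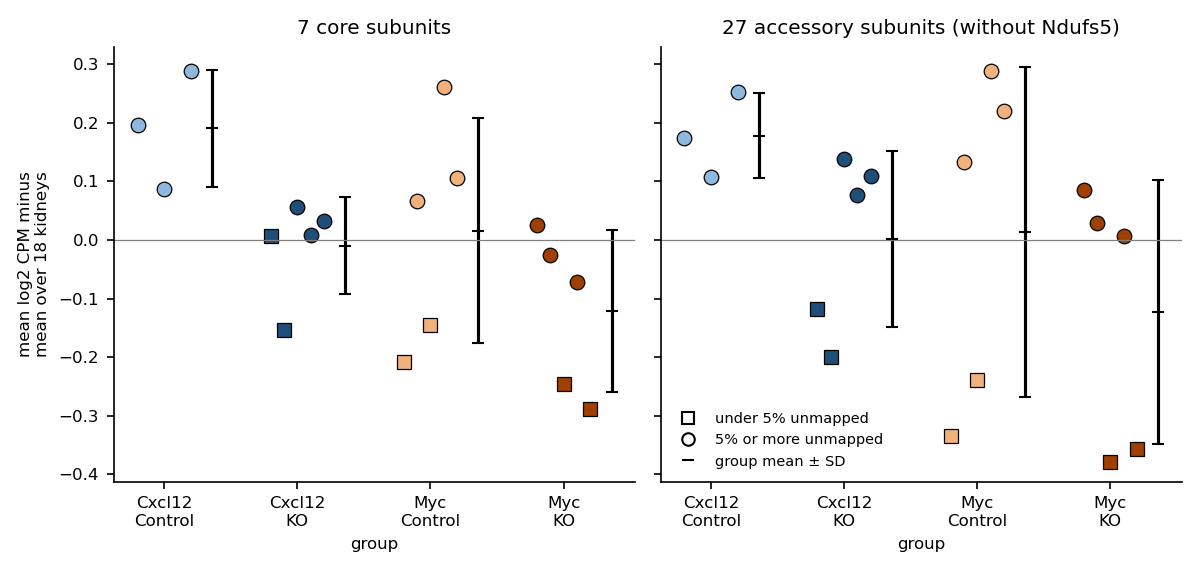
Score of each kidney, the mean over subunits of log2 CPM minus its mean over 18 kidneys, for the 7 core and the 27 accessory subunits other than Ndufs5; squares are kidneys with under 5% unmapped reads, and bars give the group mean ± SD. Squares lie below the circles of their own group in all cases, and the core scores of the 5 Cxcl12 KO kidneys lie below the 3 controls.

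Ndufs5, an accessory subunit on the intermembrane side (chromosome 4, 123712710 to 123718202, minus strand), varied more than any other. In the 8 Cxcl12 kidneys it stood at 6.55 to 11.0 CPM. In Myc controls 1 to 5 it was 0.501, 0.524, 6.06, 8.62 and 6.29 CPM, and in Myc KO kidneys 1 to 5 it was 4.98, 0.507, 6.95, 0.248 and 3.35 CPM. Low kidneys were found in both genotypes, and the fold change was -0.44 ± 0.82 on the log2 scale (adjusted p = 0.788, edgeR). BC002163, a processed pseudogene on chromosome 16 (42955631 to 42955949, plus strand), shares sequence with Ndufs5 and ran the opposite way. It had 6.32, 10.9, 0.102, 0.924 and 6.64 CPM in the Myc controls and 4.43, 10.2, 0.0910, 11.5 and 2.85 CPM in the Myc KO kidneys, and at most 0.777 CPM in the Cxcl12 kidneys.

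Of the reads counted on either gene, Ndufs5 took 92.6% to 98.8% in the 8 Cxcl12 kidneys. The Myc cohort fell at 3 levels. Ndufs5 took 90.3% to 98.7% in Myc Control 3 and 4 and Myc KO 3. It took 48.6%, 52.9% and 54.0% in Myc Control 5, Myc KO 1 and Myc KO 5, and 2.12% to 7.34% in Myc Control 1 and 2 and Myc KO 2 and 4. The sum of both genes was steadier, at 6.16 to 12.9 CPM over the 18 kidneys, and 6.16 to 7.35 CPM in the 6 with few unmapped reads. Which transcript the reads came from was not tested, and Ndufs5 was left out of the scores for this reason.

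**Figure D5:**
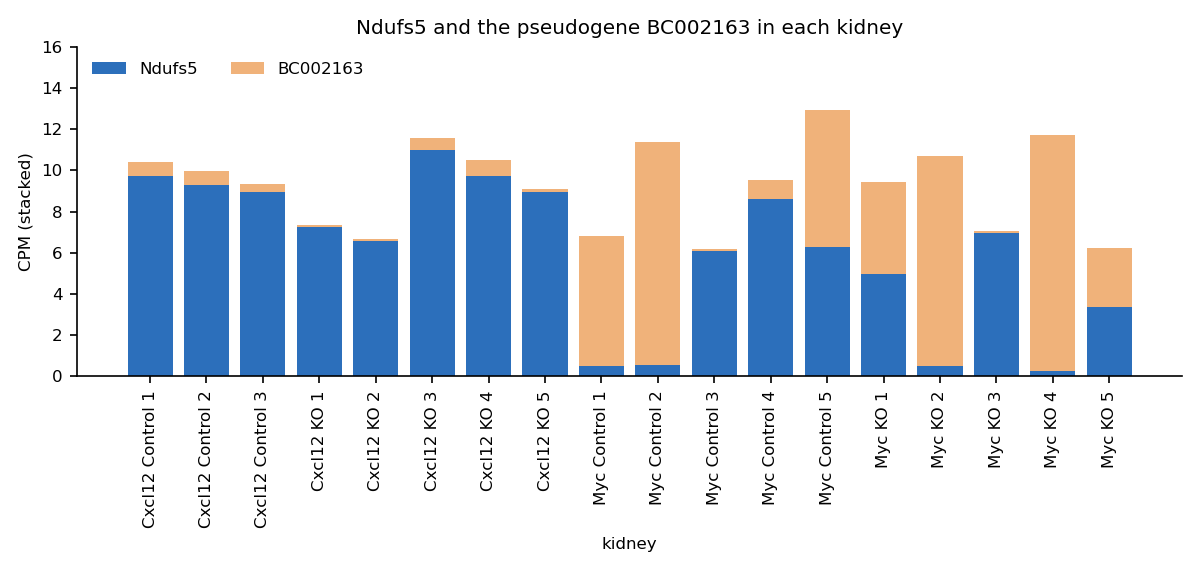
Stacked CPM of Ndufs5 and the processed pseudogene BC002163 in each kidney. In the 8 Cxcl12 kidneys the bars are almost all Ndufs5, whereas in the Myc cohort 4 kidneys are almost all BC002163 and 3 hold similar amounts of each, in KO and control alike.

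The assembly of complex I needs factors that are not part of the final enzyme. Listed were 17 names, 16 assembly factors and Ndufab1, a subunit whose symbol the rule misses because no digit follows the letter a. Of the 17 names, 16 were matched and tested. All 16 had lower means in both cohorts. In Cxcl12 KO the median was -0.16 and none passed (4 at an unadjusted p under 0.05, beside 13.0% of all genes, and smallest adjusted p 0.132, edgeR). In Myc KO the median was -0.23, with 8 at an unadjusted p under 0.05 (21.9% of all genes), and 1 passed (1.65% of all genes), Ndufaf4. It is a factor of the early steps in which the Q module is built, and it is named here because it was the only call. Ndufaf4 measured 78.9, 81.8, 63.5, 78.7 and 72.1 CPM in Myc controls 1 to 5 and 56.6, 48.7, 53.2, 49.3 and 53.5 CPM in KO kidneys 1 to 5. All KO kidneys were below all controls, in libraries with few and with many unmapped reads alike. It fell by 0.52 ± 0.08 on the log2 scale (adjusted p = 0.0135, edgeR). The call was kept in 17 of 22 alternatives, with adjusted p from 4.0e-06 to 0.0599. It was lost without Myc KO 2 (0.0595), without Myc KO 3 (0.0526), without Myc Control 2 (0.0511), with only kidneys of 5% or more unmapped reads (0.0558) and with the replicate number as a block (0.0599), where its log2 fold changes were -0.49, -0.52, -0.48, -0.58 and -0.51. In the Cxcl12 cohort Ndufaf4 stood at 65.4 ± 3.48 CPM in controls and 63.6 ± 7.82 in KO (log2 -0.04 ± 0.11), and the difference between cohorts did not pass (-0.48 ± 0.13, adjusted p = 0.126, edgeR).

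Timmdc1, a membrane arm assembly factor, came next, at 24.8, 32.2, 25.6, 38.6 and 27.3 CPM in Myc controls and 21.0, 20.9, 20.8, 20.8 and 21.3 CPM in KO. The KO kidneys differed by less than 1 CPM and lay below all controls (log2 -0.50 ± 0.12, adjusted p = 0.0523, edgeR). For comparison, the 44 tested nuclear subunits of complexes II to V had median log2 fold changes of -0.15 (Cxcl12) and -0.14 (Myc), with 40 and 41 of 44 below 0 and none past an adjusted p of 0.05 in edgeR (2 and 3 at an unadjusted p under 0.05, beside 13.0% and 21.9% of all genes). Those medians are near the ones of the complex I subunits.

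The subunits varied together within groups. With each group's mean removed, a subunit's log2 CPM had a median Pearson r of 0.91 with the mean of the other subunits over the 18 kidneys. The difference between libraries with few and with many unmapped reads, and so in depth, lies within 3 of the 4 groups and enters this correlation. In 28 of the 35 the value exceeded 0.8, and Ndufs7 was highest at 0.97. The 7 exceptions were Ndufb4 (-0.29), Ndufs1 (0.04), Ndufs5 (0.05), Ndufv2 (0.53), Ndufb2 (0.68), Ndufb3 (0.78) and Ndufc1 (0.78). Of 15866 tested genes outside the rule, 756 exceeded 0.8. The 5 most alike were Cox7a2 and Cox4i1, subunits of complex IV, Fxyd2, a regulator of the sodium pump, 2410015M20Rik and Ufc1, all at 0.97.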

How the data were processed

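Whole kidney RNA of 18 mice was sequenced, and the authors deposited a STAR gene count table per kidney. They trimmed reads with Trimmomatic 0.32 and aligned them with STAR 2.4.0, and the counts as deposited are not normalized. The annotation release is not given in the sources used here. Column 2, which ignores strand, was used, since the strand columns each held 51.8% to 52.8% of it. Identifiers were matched to GENCODE vM21 (45143 of 45706). STAR's 4 summary rows stayed out of library sizes. Multimapping reads were 16.6% to 18.6% of all reads, unmapped 3.69% to 6.48%, outside genes 4.77% to 7.07% and ambiguous 2.26% to 2.52%. Over 10% of the 50-base words of 9 members occur in another gene, and over 10% of the exonic bases of 6 members overlap another gene (Ndufa13, Ndufa2, Ndufb11, Ndufb5, Ndufb6 and Ndufb9), so their counts are uncertain.

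Each cohort was fitted separately with edgeR 4.0.16 (R 4.3.3): filterByExpr, TMM, quasi-likelihood test, and Benjamini-Hochberg adjustment over all genes tested. The difference between cohorts was a contrast in a fit of all 18 kidneys. CPM were scaled by TMM over 18 kidneys, log2 CPM used a prior count of 2, and SE is the log2 fold change divided by the root of its F. Alternatives used DESeq2 1.42.0, limma 3.58.1, other scalings, filters, offsets, terms and samples. Tests were checked on simulated counts, with planted changes larger than those of the subunits and no difference tied to unmapped reads. The check therefore does not cover changes of the size seen in the subunits. Equal replicate numbers did not deviate together, so they were not taken as pairs. Per-kidney values are given for 6 of the 7 core subunits (1 gene is counted in every summary but not reported singly here), the 3 lowest and 2 highest fold changes in each cohort, Ndufa4, Ndufa4l2 and any called member; Ndufb10, Ndufaf4 and Timmdc1 were added after their values were seen. The members and lists were chosen with earlier results of these data known. Figures were drawn with matplotlib 3.10.9.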

Additional observations from a re-analysis of the deposited data

Results flagged for a closer look

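Among 51 sets of 5 kidneys (17 measures in 3 groups), 2 held a kidney whose gap to its neighbour, on the log2 scale, exceeded Dixon's critical ratio of 0.71, where chance gives about 1 in 20. Ndufb2 was 17.3 CPM in Cxcl12 KO 3, above the other 4 Cxcl12 KO kidneys (gap 0.861 of the range). Ndufs1 was 203 CPM in Myc Control 4, above the other 4 Myc controls (0.755).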

How the results depend on the processing

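In the main fits no subunit was called in either cohort or in their difference, and the counts stayed at 0 in the alternatives with these exceptions. DESeq2 called 1 in the Cxcl12 cohort (Ndufb10, log2 -0.30). The yes or no term for under 5% unmapped reads, below the unmapped term, gave 3 in the Myc cohort, of which Ndufs7 had log2 -0.29. The median log2 fold change stayed below 0 throughout, at -0.24 to -0.10 for Cxcl12 and -0.22 to -0.06 for Myc; without each kidney in turn it was -0.24 to -0.14 and -0.22 to -0.06. The Cxcl12 core minus accessory median, -0.06, was 0.071 with the replicate number as a block, 0.022 on strand column 3 and -0.064 to 0.012 without each kidney in turn, and the cause was not tested. With that block the medians were -0.24 (Cxcl12), -0.12 (Myc) and 0.12 (difference), and no subunit was called; equal numbers correlated at 0.07 and 0.05 on average, and all genes called in the Myc cohort went from 246 to 18. The median difference between cohorts, 0.03, became -0.10 with the unmapped term and -0.05 in kidneys of 5% or more unmapped reads. Over all genes, DESeq2 called 355 in Cxcl12, where edgeR called none, and 1139 in Myc. The number of Cxcl12 subunits at an unadjusted p under 0.05, 9 in the main fit, ran from 2 (without Control 3) to 19 (replicate block). It was 4 with the unmapped term and 5 in kidneys of 5% or more unmapped reads. For Myc the number, 2, ran from 0 to 13, with 11 and 13 in those settings. The share of all genes at that level was not counted in the alternatives.

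Some single genes changed sign, none past the test in either direction. In the Cxcl12 cohort Ndufa1 was 0.13 with the unmapped term and 0.12 in kidneys of 5% or more unmapped reads, Ndufs5 was 0.071 and 0.064 there and 0.10 on strand column 3, and Ndufb2 was -0.01 with library totals, -0.002 with length and GC offsets and -0.17 on strand column 3. In the Myc cohort Ndufa1 was -0.024 with library totals, -0.008 in kidneys of 5% or more unmapped reads and -0.019 on strand column 3, Ndufa4 was 0.040 and Ndufa5 0.047 with length and GC offsets, Ndufa5 was 0.014 on strand column 3, and Ndufa4l2 was 0.10 on strand column 4. Without each kidney in turn, Ndufa1 ran from -0.12 to 0.14 in Myc, Ndufa3 from -0.24 to 0.002, Ndufa5 from -0.11 to 0.062, Ndufa4 from -0.11 to 0.008, Ndufa4l2 from -0.26 to 0.004 and Ndufv1 from -0.16 to 0.002, and Ndufa4 in Cxcl12 from -0.064 to 0.003. Depth limits Ndufa4l2, at 11 to 47 reads a kidney. Ndufs5 had 4 to 179 reads a kidney, and in the kidneys with 4 to 13 of them BC002163 held 164 to 185 reads.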

Other observations

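The mitochondrially encoded core subunits of complex I are outside the symbol rule and were added after the data were seen. Of 7 genes, 5 were tested (mt-Nd1, mt-Nd2, mt-Nd4, mt-Nd5 and mt-Nd6). In the Cxcl12 cohort all 5 had higher means in KO, with log2 fold changes of 0.18 to 0.37, while 33 of the 35 nuclear subunits had lower ones. In the Myc cohort all 5 lay between 0.01 and 0.09. None passed an adjusted p of 0.05 in edgeR in either cohort (smallest 0.344 and 0.727). At an unadjusted p under 0.05 there were 2 and 0, beside 13.0% and 21.9% of all genes. In the Cxcl12 cohort 2 KO kidneys and no control had under 5% unmapped reads, so genotype and library are partly shared there.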
